A study of Mus musculus with 22 samples.

Results

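Bromosporine, a compound that blocks many of the bromodomains with which proteins read acetylated lysine on histones, was compared directly with Valproate, a compound that blocks the histone deacetylases that remove this acetylation, in mouse E14 embryonic stem cells (ESCs). The comparison used the 2 libraries labelled Bromosporine and the 2 labelled Valproate, 4 of the 22 RNA-seq libraries in the series. The other 18 libraries, 2 for each of 9 groups, served as a shared reference when each compound was set against the other groups. They consisted of the group labelled NC and the groups treated with Chaetocin, CPTH2, DZNep, Garcinol, IOX1, MS023, OICR or UNC0379. In the direct comparison they were not a reference but entered the estimate of spread, which was pooled over all 11 groups. All groups were the same unmodified ESC line, and the labels gave no dose and no time for any compound. The study grew its E14 cells in serum with LIF. The labels did not say that the 2 libraries of a group came from separate cultures. Each p-value therefore measured the spread between libraries of the same group, pooled over the groups, which may be technical.

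Acetylated lysines on histone tails are laid down by acetyltransferases, bound by bromodomain proteins and taken off by deacetylases. Among the readers, the BET proteins recruit elongation factors to active promoters and enhancers, so that a bromodomain inhibitor removes the reader while the mark may stay. A deacetylase inhibitor lets acetylation accumulate, also at genes that ESCs keep silent, such as germline genes and genes of the 2-cell embryo. Both compounds therefore act on the same mark from different sides.

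The values were normalized read counts with the same distribution in every library (median 409), so that the sequencing depth behind each value was unknown. A gene was tested if it reached 10 in at least 2 libraries (17275 of 18487 genes), and it was called if the limma test on log2(value + 1) gave a Benjamini-Hochberg adjusted p under 0.05 and a fold over 2. Markers of ESCs were present in all 4 libraries: 10 of 10 were in the table, their summed value was 242055 and 225726 with Bromosporine and 232168 and 238582 with Valproate (178012 to 284402 in the other 18 libraries), and 0 of them were called between the compounds by limma, with 2 at an unadjusted p under 0.05. The Bromosporine libraries listed the most genes at 0 of all 22 (1655 and 1707) and the Valproate libraries the fewest (1065 and 1110), against 1151 to 1429 elsewhere. A gene could also be listed at 0 in a single library of a pair: in every library, 44 to 174 genes stood at 0 while the other library of the group was at 100 or more. Col4a5, a basement membrane collagen on the X chromosome, was an example, with 0 and 889 in the Bromosporine libraries but 1291 and 1353 in the Valproate libraries. In bulk RNA, fewer cells of a type and less RNA per cell cannot be told apart.

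Between the compounds, 1492 genes were called (8.64% of those tested), of which 486 were higher with Bromosporine (2.81%) and 1006 were higher with Valproate (5.82%). Differences over 4-fold were found for 74 genes in the first direction and 538 in the second. The values of both groups were separate for all 1492 genes, beside 30.4% of all tested genes with both Bromosporine libraries above both Valproate libraries and 24.3% with both below. Among the called genes, 217 were listed at 0 in some of the 4 libraries, and 1265 called genes (479 higher with Bromosporine and 786 higher with Valproate) were above 0 in all 22 libraries. Annotated genes called higher with Valproate were long (median 28558.5 bases from start to end, 20105 over all tested genes), mostly protein coding (95.2%, 86.7% over all) and on the X chromosome in 6.75% of cases (4.01% over all). Those called higher with Bromosporine were short (median 6848.5 bases) and protein coding in 61.1% of cases. Without the second Bromosporine library, 891 genes were called (223 higher with Bromosporine and 668 with Valproate), while without the first or the second Valproate library 646 and 658 were called higher with Valproate. Fitted on the 4 libraries alone, with the spread taken from these libraries only, 164 genes were called. Of these, 15 were higher with Bromosporine and 149 with Valproate, and 115 were among the 1492.

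Among the genes named by rule, which were above 0 in all libraries with a group mean of at least 100, the one with the largest difference towards Bromosporine was Etv4, an ETS transcription factor induced by FGF and ERK signalling. Its normalized read count was 2006 and 3757 with Bromosporine and 134 and 408 with Valproate, against 3169 and 4442 in NC, a difference of 3.55 ± 0.44 (log2, SE, n = 2 and 2; limma adjusted p = 0.000228). The first Bromosporine library was just below the range of the other groups (2136 to 4765), the second was within it, and the Valproate libraries were far below. Fgf17, an FGF ligand, followed with 378 and 431 against 42 and 41, and NC at 874 and 805 (log2 difference 3.25 ± 0.34, limma adjusted p = 6.2e-05). Sall3, a zinc finger transcription factor, was at 1034 and 1318 against 113 and 217 (2.89 ± 0.41, limma adjusted p = 0.000589). Fgf17 and Sall3 were also below all other 18 libraries with Valproate, and the second Bromosporine library of Sall3 exceeded their maximum of 1222.

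Hist3h2a, a histone H2A gene whose exons overlap Trim17 on the same strand, was instead raised with Bromosporine, with values of 503 and 559 against 75 and 111 and a maximum of 346 elsewhere (log2 difference 2.53 ± 0.40, limma adjusted p = 0.00107). Lmo4, a LIM-only transcriptional cofactor, was at 310 and 313 against 50 and 59, with both groups outside the range of the other libraries (127 to 288), so that the compounds lay on either side of it (2.50 ± 0.21, limma adjusted p = 1.61e-05). Rapgef3, the cAMP-activated exchange factor Epac1, was at 225 and 292 against 66 and 32 (2.45 ± 0.35, limma adjusted p = 0.000588). Its exons overlap antisense genes, and the libraries were not stated to keep strand. Rhbdl1, a rhomboid-family gene, was at 134 and 71 against 12 and 14 (2.82 ± 0.52, limma adjusted p = 0.0031), although 79.9% of its 31-base words occur elsewhere in the annotated transcripts.

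Towards Valproate the differences were larger. Fbln2, an extracellular matrix glycoprotein, was at 18 and 12 with Bromosporine and 728 and 551 with Valproate, with NC at 26 and 41, a log2 difference of -5.33 ± 0.35 (limma adjusted p = 2.26e-06). Thy1, a surface glycoprotein of neurons, T cells and fibroblasts, was at 10 and 6 against 358 and 303 (-5.23 ± 0.42, limma adjusted p = 1.28e-05). Both genes were above all other 18 libraries with Valproate (maxima of 107 and 66), and Fbln2 was also below them with Bromosporine (minimum of 21). Fthl17c and Fthl17d, X-linked ferritin heavy chain-like genes expressed in germ cells and early embryos, were at 26 and 52 against 1135 and 778 and at 7 and 20 against 688 and 313 (-4.64 ± 0.41 and -5.17 ± 0.53, limma adjusted p = 2.2e-05 and 5.51e-05). Of their 31-base words, 86.8% and 94.4% are shared with other transcripts, so that reads may have been split between copies. Brdt, the BET reader of the male germline, was at 27 and 17 against 450 and 507, with 9 to 123 elsewhere (-4.41 ± 0.82, limma adjusted p = 0.0033).

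Other genes far higher with Valproate encode receptors and enzymes. Sstr5, a somatostatin receptor, differed from those above because Bromosporine was the group that stood apart: its values were 1 and 13 with Bromosporine and 118 and 179 with Valproate, against 79 to 613 elsewhere (-4.79 ± 0.62, limma adjusted p = 0.000311). Plb1, a phospholipase, was at 6 and 13 against 365 and 189 (-4.74 ± 0.69, limma adjusted p = 0.000641). The range elsewhere was wide (1 to 289), and only the first Valproate library was outside it. Dcc, the netrin receptor, and Gabra4, a GABA-A receptor subunit whose exons overlap Gabrb1, were at 6 and 8 against 317 and 622 and at 9 and 10 against 321 and 727 (-5.81 ± 1.56 and -5.53 ± 1.56, limma adjusted p = 0.0237 and 0.0299). These last calls were lost whichever of the 4 libraries was left out (limma adjusted p from 0.0693 to 0.113 for Dcc and from 0.0762 to 0.137 for Gabra4), and each gene was also high in some library of another group (368 and 727).

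**Figure D1:**
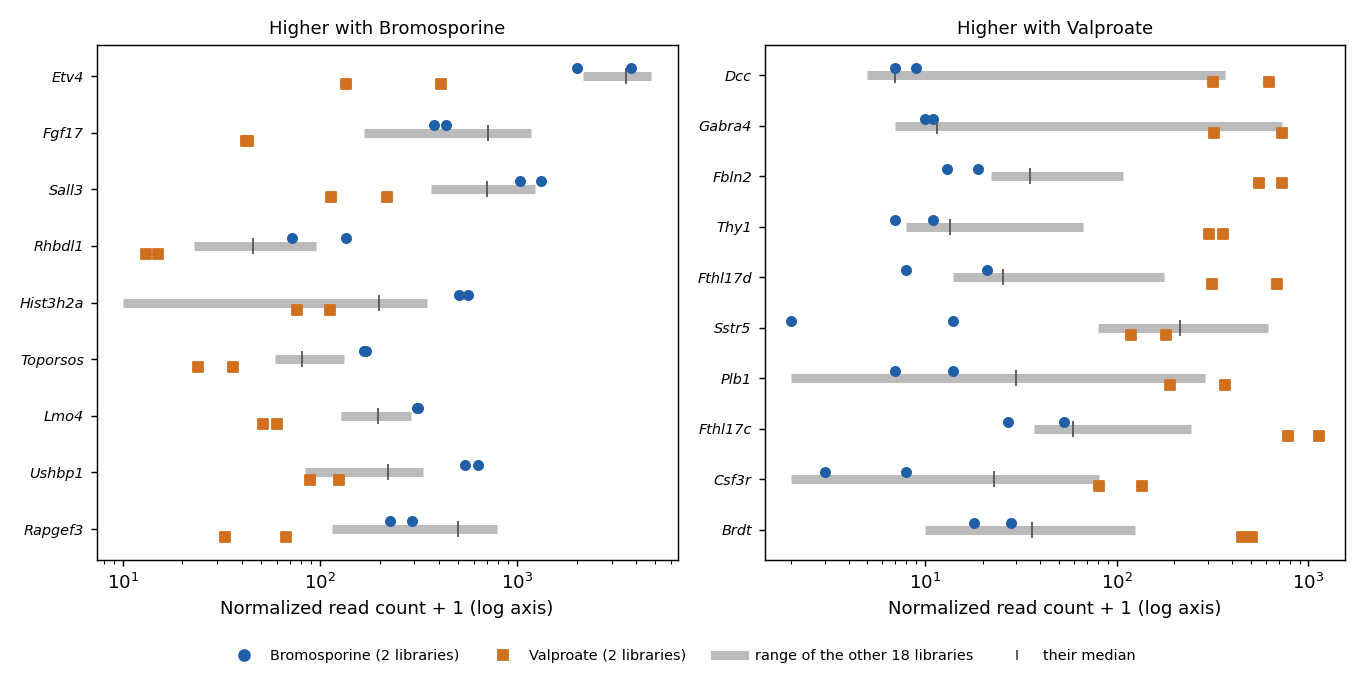
Normalized read count plus 1 on a log axis for named genes with large differences in each direction; dots are the 2 Bromosporine libraries, squares the 2 Valproate libraries, bars the range of the other 18 libraries and ticks their median. In the left panel Etv4, Fgf17 and Rapgef3 lie below the bar with Valproate and Hist3h2a and Ushbp1 above it with Bromosporine, while in the right panel Fbln2, Thy1, Fthl17c, Fthl17d and Brdt lie above it with Valproate and Sstr5 below it with Bromosporine.

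Each compound was next set against the mean of the other 9 groups to separate genes moved in opposite directions from genes moved alike. Bromosporine raised 141 genes (0.816%) and lowered 767 (4.44%), whereas Valproate raised 759 (4.39%) and lowered 578 (3.35%). Both contrasts use the same 18 reference libraries. Of 262 genes called with both compounds, 76 moved in opposite directions and 186 moved alike. The opposite genes were mostly lower with Bromosporine and higher with Valproate (70 genes) and rarely the reverse (6 genes), and all 76 were also called in the direct comparison. The alike genes were mostly lower with both (156 genes, 30 higher with both), and only 19 of the 186 were called in the direct comparison. A further 387 genes were called in the direct comparison and with Bromosporine alone (48 higher and 339 lower) and 557 with Valproate alone (364 higher and 193 lower). The remaining 453 genes of the direct comparison were in no class (230 higher with Bromosporine and 223 with Valproate).

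These class sizes rested on single libraries and on the reference. Without the first Bromosporine library, 37 genes were lower with Bromosporine and higher with Valproate, 2 were the reverse, 7 and 77 were higher and lower with both, and 8 and 201 were higher and lower with Bromosporine alone. Leaving out the second left 19 genes higher with Bromosporine alone and 210 higher and 96 lower with Valproate alone. Without the first Valproate library, 37 genes were in the main opposite class, 99 were lower with both, 28 were higher with Bromosporine alone and 185 were higher with Valproate alone, and without the second the main opposite class held 37 and 24 were higher with Bromosporine alone. With NC in place of the 9 groups as the reference, 18 of the 76 opposite genes and 104 of the 186 alike genes kept their class, and without DZNep in the reference 57 and 163 did.

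**Figure D2:**
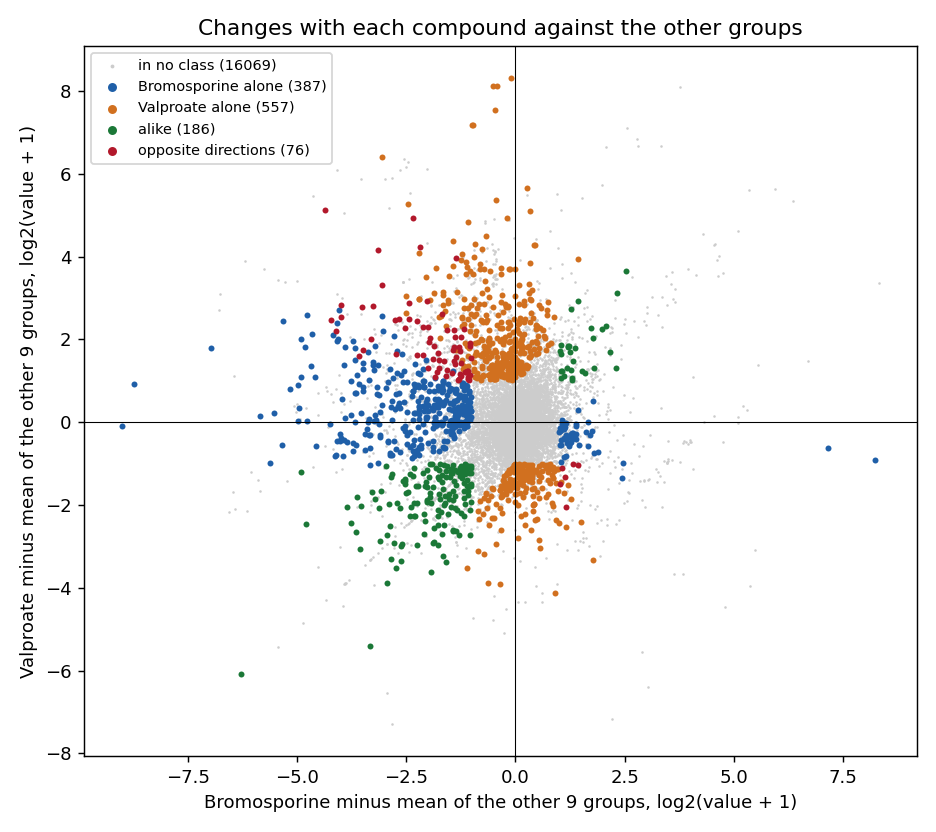
Difference of each of the 17275 tested genes with Bromosporine (horizontal) and with Valproate (vertical) from the mean of the other 9 groups on the log2(value + 1) scale; colours mark the classes and both axes share the reference libraries. The 76 genes moved in opposite directions lie mainly in the upper left and the 186 moved alike mainly in the lower left.

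Among the opposite genes with Bromosporine on the higher side was Ushbp1, which encodes a PDZ-binding partner of harmonin. It was at 630 and 541 with Bromosporine and 88 and 124 with Valproate, so that it rose by 1.44 ± 0.16 and fell by 1.03 ± 0.16 against the other groups (log2, SE, limma adjusted p = 0.00012 and 0.00068). Toporsos, named as an antisense RNA of Topors, was at 169 and 165 against 35 and 23, and reads from it and from Topors cannot be told apart where strand was not kept. The rise of Toporsos with Bromosporine missed the threshold without the first Bromosporine library (1.00, limma adjusted p = 0.0811) and was under 2-fold with a pseudocount of 10 (0.94), after median-ratio rescaling (0.97) and without DZNep in the reference (0.96). The fall of Ushbp1 with Valproate was under 2-fold without the first Valproate library (-0.79, limma adjusted p = 0.0353), with a pseudocount of 10 (-0.98) and with NC as the reference (-0.92). Pcdhgc5, a gamma protocadherin, was another gene of this class, with 85 and 88 against 18 and 15 and 20 to 45 elsewhere, and was named after its values were seen, since it is under the level set for named genes.

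In the other orientation, Ifi27, an interferon-inducible gene, was at 9 and 24 with Bromosporine and 446 and 243 with Valproate, and at 56 and 67 in NC. It fell by 2.72 ± 0.33 and rose by 1.66 ± 0.33 (log2, limma adjusted p = 0.00019 and 0.0031), and its Bromosporine values were below all other libraries (46 to 462). Rhox2b, a reproductive homeobox gene on the X chromosome, was at 40 and 20 against 332 and 438 (-1.87 ± 0.29 and 1.83 ± 0.29, limma adjusted p = 0.0011 and 0.00066). Pla2g2f, a secreted phospholipase A2, was at 14 and 7 against 204 and 225 (-1.68 ± 0.30 and 2.61 ± 0.30, limma adjusted p = 0.0026 and 5.9e-05). Ifi27 and Pla2g2f were below the other 18 libraries in both Bromosporine libraries and Rhox2b in the second, while the Valproate values of all 3 genes were within the range of those libraries.

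Csf3r, the receptor of granulocyte colony-stimulating factor, was at 2 and 7 against 80 and 135, Prss42, a testis serine protease, at 6 and 13 against 191 and 118, and Asphd2, an aspartate beta-hydroxylase domain gene, at 9 and 27 against 247 and 277. Their direct differences were -4.42 ± 0.64, -3.93 ± 0.49 and -3.97 ± 0.59 (log2, limma adjusted p = 0.000661, 0.000234 and 0.000768). Fbln2 was in the same class (-1.36 ± 0.26 and 3.97 ± 0.26, limma adjusted p = 0.0039 and 8.8e-07). The direct calls of Csf3r, Prss42 and Asphd2 were kept with any library left out, but each of these genes lost a call against the other groups in some such fit. Without the first Bromosporine library, the limma adjusted p was 0.306 for Csf3r, 0.135 for Prss42 and 0.337 for Asphd2, and without its second library it was 0.0809 for Pla2g2f. With the first Valproate library left out it was 0.0672 for Prss42, 0.0567 for Asphd2 and 0.105 for Ifi27, and with the second left out 0.082 for Csf3r and 0.0631 for Asphd2.

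Most alike genes were not called between the compounds. Dnmt3l, the regulatory partner of the de novo DNA methyltransferases, whose exons overlap Aire on the other strand, was at 160 and 311 with Bromosporine and 442 and 536 with Valproate, against 9 and 40 in NC. It rose by 2.54 ± 0.68 and 3.66 ± 0.68 against the other groups (log2, limma adjusted p = 0.028 and 0.0021), and the direct difference was -1.12 (95% interval -3.10 to 0.85, limma adjusted p = 0.45). Its call with Bromosporine was lost without either of that compound's libraries (limma adjusted p = 0.132 without the first and 0.277 without the second), and another group reached 1487. Hey1, a NOTCH target repressor, was at 259 and 199 and at 332 and 221, above all other libraries (38 to 124), with a direct difference of -0.25 (95% interval -0.96 to 0.45). Atxn1l, a partner of the repressor Capicua, was at 325 and 212 and at 403 and 249, also above all other libraries (3 to 164; direct difference -0.27, 95% interval -1.14 to 0.60). For Hey1 and Atxn1l the values of both compounds overlapped each other and stood clear of the rest. The NC values of Atxn1l were 162 and 97 and its DZNep values 4 and 3, and with NC as the reference neither of its rises was called (1.06 and 1.33, limma adjusted p = 0.16 and 0.0534).

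Nedd9, a scaffold of adhesion signalling, was at 128 and 94 and at 121 and 145, with 9 to 93 elsewhere, and Wnt7b, a WNT ligand, was at 286 and 190 and at 346 and 340, with 25 to 176 elsewhere. Without the first Bromosporine library their rises with Bromosporine missed the threshold (limma adjusted p = 0.0955 and 0.238), as did that of Atxn1l (0.0523), and without the second that of Wnt7b did too (0.0514). The single gene of the 30 that rose with both and was also called between them was Mgll, monoacylglycerol lipase, at 43 and 50 against 177 and 99 (-1.49 ± 0.35, limma adjusted p = 0.0117).

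Genes lower with both included Serpinf1, the secreted protein PEDF, at 4 and 17 and at 13 and 12, against 229 and 214 in NC. Serpinf1 was also low with DZNep (9 and 8), and the other 18 libraries ranged from 8 to 794. It fell by 3.56 ± 0.45 with Bromosporine and fell by 3.05 ± 0.45 with Valproate (log2, limma adjusted p = 0.00026 and 0.00041), with a direct difference of -0.51 (95% interval -1.81 to 0.80). Kirrel2, an adhesion molecule of the immunoglobulin family, was at 102 and 247 and at 72 and 93, against 1798 and 1449 in NC, and its direct difference of 0.95 passed the test only without the first Bromosporine library (1.58, limma adjusted p = 0.0227). All 4 values of both Serpinf1 and Kirrel2 were below the median of the other 18 libraries. For Kirrel2 those libraries ranged from 164 to 1818, so that its second Bromosporine library lay within the range.

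Cox6a2, the muscle form of a cytochrome oxidase subunit, was at 11 and 38 and at 12 and 1, against 317 and 299 in NC. Krt17, a keratin, was at 11 and 43 and at 28 and 14, against 178 and 164 in NC. The other 18 libraries ranged from 9 to 1249 for Cox6a2, with DZNep at 88 and 9, and from 34 to 454 for Krt17. The falls of Cox6a2 and Krt17 with Bromosporine missed the threshold without its first library (limma adjusted p = 0.207 and 0.147), and the direct difference of Cox6a2 was called without the first Valproate library (3.44, limma adjusted p = 0.044). Serpinh1, the collagen chaperone Hsp47, was at 769 and 759 and at 941 and 847, against 4328 and 3096 in NC. It fell by 1.45 ± 0.20 with Bromosporine and fell by 1.23 ± 0.20 with Valproate (limma adjusted p = 0.00048 and 0.00082). All 4 values were within the range of the other 18 libraries (255 to 5395). Among the 18 genes lower with both that were also called between them, 9 were lower still with Valproate, such as Mmp14, a membrane-bound matrix metalloprotease (94 and 87 against 31 and 44), and 9 were lower still with Bromosporine, such as Lefty2, a Nodal antagonist (175 and 449 against 869 and 808), 2 examples chosen after their values were seen.

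**Figure D3:**
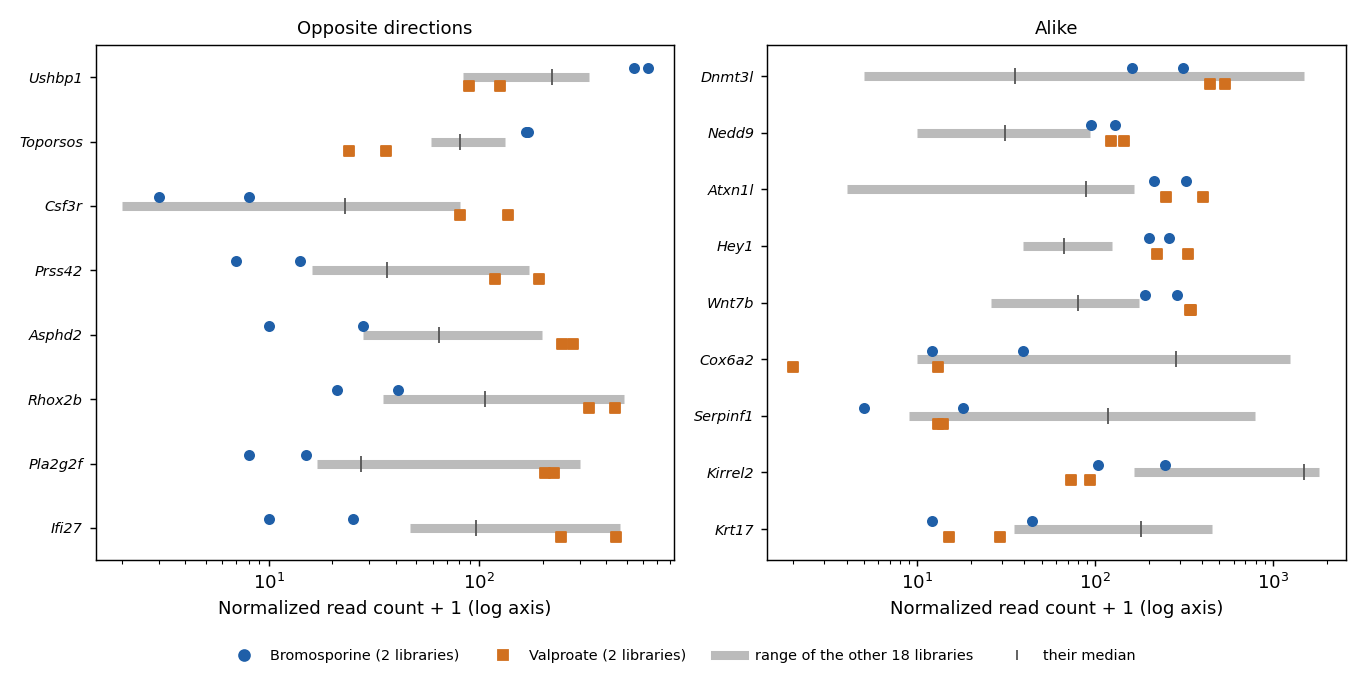
Normalized read count plus 1 on a log axis for named genes that moved in opposite directions (left) or alike (right) against the other groups; dots are Bromosporine, squares Valproate, bars the range of the other 18 libraries and ticks their median. On the left the dots and squares lie on either side of the tick, and on the right they lie on the same side.

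The RNA of ubiquitous BET readers and class I deacetylases was read for its own level. Brd2 was at 10288 and 12098 with Bromosporine and 6898 and 9004 with Valproate, a log2 difference of 0.50 ± 0.15 (limma adjusted p = 0.044) that was under 2-fold and so not called. Brd3 differed by 0.10 (95% interval -0.21 to 0.41), and Hdac1, Hdac2 and Hdac3, class I deacetylases, by -0.03 (-0.27 to 0.21), 0.00 (-0.44 to 0.45) and 0.19 (-0.11 to 0.48). Of 37 bromodomain proteins in the list, which leaves out Sp110, 1 was called (Brdt, 2.7% of the list and 8.64% over all genes). Of 33 deacetylases and corepressors 0 were called by limma (5 higher with Bromosporine and 2 higher with Valproate at an unadjusted p under 0.05). Cdkn1a, the CDK inhibitor p21 that deacetylase inhibitors are known to induce, was at 6168 and 5111 against 8038 and 7963 (-0.51 ± 0.10, limma adjusted p = 0.00497), again under 2-fold. Both Valproate values exceeded the maximum of the other 18 libraries, 7622.

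In the list of P-TEFb, an elongation factor, its inhibitors in the 7SK particle and their partners, 2 of 28 genes were called. This was 7.14%, against 8.64% over all genes. Hexim2, a P-TEFb inhibitor, was at 100 and 151 against 42 and 55, and Mllt3, a subunit of the super elongation complex, was at 253 and 208 against 580 and 443 (1.34 ± 0.21 and -1.14 ± 0.26, limma adjusted p = 0.00105 and 0.0108). Hexim1, which BET inhibitors raise in many cells, was at 1519 and 2039 against 1142 and 2039, and the groups overlapped (0.21, 95% interval -0.53 to 0.94). Myc was low in all 4 libraries (36, 89, 12 and 26), and its difference of 1.62 had an interval of -0.42 to 3.67. Mycn, the abundant MYC family member here, was at 4991 and 4212 against 5162 and 5429 (-0.21, 95% interval -0.80 to 0.39), and of 32 genes of the MYC family and ribosome biogenesis 0 were called by limma (2 higher with Bromosporine and 6 higher with Valproate at an unadjusted p under 0.05).

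Few pluripotency genes were called between the compounds. Pou5f1 was at 30833 in both Bromosporine libraries and at 25663 and 27731 with Valproate (0.21, 95% interval 0.01 to 0.41, limma adjusted p = 0.155), and the intervals for Sox2 and Nanog were -0.46 to 0.33 and -0.92 to 0.69. Of 19 naive pluripotency genes 2 were called. Dppa3, the maternal factor Stella, was at 669 and 479 against 3544 and 2894, with 54 to 519 elsewhere (-2.50 ± 0.64, limma adjusted p = 0.019), whereas Nr0b1, the nuclear receptor Dax1, was at 2779 and 3823 against 1446 and 1325 (1.24 ± 0.20, limma adjusted p = 0.00152). Both genes were outside the range of the other libraries with Valproate. Of the core and formative genes, Etv4 was called higher with Bromosporine and Lef1 higher with Valproate.

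Of the 23 lists, that of the 2-cell embryo had the largest median difference. ESC cultures hold a small, changing fraction of cells that express Zscan4, a telomere-associated zinc finger family, with other transcripts of the 2-cell stage. Of 23 tested genes of this list, 17 were called higher with Valproate (5.82% over all genes) and 0 higher with Bromosporine (0 also at an unadjusted limma p under 0.05), and 22 had a negative difference. Zscan4c was listed at 0 in both Bromosporine libraries and at 94 and 153 with Valproate (limma adjusted p = 0.00313), with NC at 64 and 66 and a range of 0 to 87 elsewhere. Zscan4d and Zscan4f were likewise listed at 0 with Bromosporine, while Valproate gave 56 and 184 for the first and 81 and 258 for the second. Both Valproate libraries were above the other 18 for these 3 genes (maxima of 87, 49 and 79), and the second was the higher of the pair. NC was at 40 and 47 for Zscan4d and at 65 and 43 for Zscan4f. Against the other groups, the rise with Valproate was called for Zscan4d (limma adjusted p = 0.0148) but not for Zscan4c or Zscan4f (0.153 and 0.118). The fall with Bromosporine was called for Zscan4c and Zscan4d (limma adjusted p = 0.0045 and 0.00095) but not for Zscan4f (0.0636).

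All 17 called genes of the 2-cell list were at 0 in some library, so that 0 were called among genes above 0 in all libraries, and 6 to 11 were called with a library left out (8 without either Bromosporine library, 11 without the first and 6 without the second Valproate library). The list's median log2 difference of -5.18 depended on the value added before the logarithm and was -2.73 with 10 in place of 1 (medians over all genes 0.05 and 0.05). Of 9 Zscan4 genes and pseudogenes tested, a group chosen after the values were seen, all 9 were listed at 0 in both Bromosporine libraries and 7 were called. Outside the Zscan4 cluster, Sp110, a nuclear body protein with a bromodomain, was at 0 and 5 against 93 and 82 (-5.17 ± 0.67, limma adjusted p = 0.000288). The Zscan4 copies are near-identical, and 65.0% to 97.6% of the 31-base words of the 6 members in the list occur in other transcripts, so that values of single copies are uncertain.

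Windows from 250 bases before to 50 bases after the annotated start are printed for the Zscan4 genes that RefSeq (GRCm38.p6) supplied, to show how alike the copies are where transcription begins. The capitals mark TATAAA, the letters of a TATA box, which was searched for on both strands and is held by 8.21% of the 11819 windows of tested genes. The windows are chr7:10905001-10905300 (- strand) for Zscan4b, chr7:11005495-11005794 (+ strand) for Zscan4c, chr7:11166099-11166398 (- strand) for Zscan4d and chr7:11397665-11397964 (+ strand) for Zscan4f, each written 5′ to 3′ on the gene's strand.
Zscan4b: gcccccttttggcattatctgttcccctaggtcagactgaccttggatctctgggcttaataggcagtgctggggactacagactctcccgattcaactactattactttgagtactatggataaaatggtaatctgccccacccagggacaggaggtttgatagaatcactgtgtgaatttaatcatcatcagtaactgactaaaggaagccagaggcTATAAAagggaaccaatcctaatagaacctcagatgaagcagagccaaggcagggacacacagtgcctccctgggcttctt
Zscan4c: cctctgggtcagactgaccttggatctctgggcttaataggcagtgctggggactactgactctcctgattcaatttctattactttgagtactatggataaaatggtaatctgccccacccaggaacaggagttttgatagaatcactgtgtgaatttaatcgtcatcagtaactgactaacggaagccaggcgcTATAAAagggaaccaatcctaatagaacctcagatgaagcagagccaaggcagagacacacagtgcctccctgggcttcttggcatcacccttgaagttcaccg
Zscan4d: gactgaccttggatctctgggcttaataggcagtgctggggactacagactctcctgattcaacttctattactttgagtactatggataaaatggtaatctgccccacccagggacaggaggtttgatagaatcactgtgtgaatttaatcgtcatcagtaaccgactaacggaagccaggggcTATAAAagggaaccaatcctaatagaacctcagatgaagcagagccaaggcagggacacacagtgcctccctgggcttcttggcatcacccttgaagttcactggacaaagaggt
Zscan4f: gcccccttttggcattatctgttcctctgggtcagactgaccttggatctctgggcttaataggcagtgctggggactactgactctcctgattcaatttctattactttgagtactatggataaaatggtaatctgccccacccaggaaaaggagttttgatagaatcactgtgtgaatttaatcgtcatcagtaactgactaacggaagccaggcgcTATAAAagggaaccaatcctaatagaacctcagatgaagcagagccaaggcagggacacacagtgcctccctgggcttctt
The match begins at position -31 relative to the start in Zscan4b and Zscan4f, at -54 in Zscan4c and at -65 in Zscan4d, and the windows of Zscan4b and Zscan4f have the same base at 287 of 300 positions. The other pairs, whose annotated starts differ relative to the match, have the same base at 70 to 73 of 300 positions without alignment. A match is a description of these letters and not a mapped site.

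The X-linked Rhox homeobox cluster, expressed in testis and placenta and chosen after its values were seen, went the same way. All 19 tested members had a negative difference, and 14 were called higher with Valproate (5.82% over all genes). Of these, 6 were in the opposite class with Valproate higher (0.405% over all genes). Rhox5, the founding member, was at 617 and 592 with Bromosporine and 4970 and 2710 with Valproate, against 345 and 344 in NC (-2.60 ± 0.24, limma adjusted p = 2.8e-05). Its Bromosporine values and its second Valproate value were within the range elsewhere (232 to 3042), where DZNep was at 3042 and 2446. Rhox2a was at 145 and 157 against 1028 and 1317 (-2.94 ± 0.30, limma adjusted p = 5.34e-05), with Bromosporine below the other libraries (168 to 1998). Among genes above 0 in all libraries 7 were called, and because 65.8% to 100% of the 31-base words of the called Rhox2 and Rhox4 copies are shared, their values are not independent of each other.

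**Figure D4:**
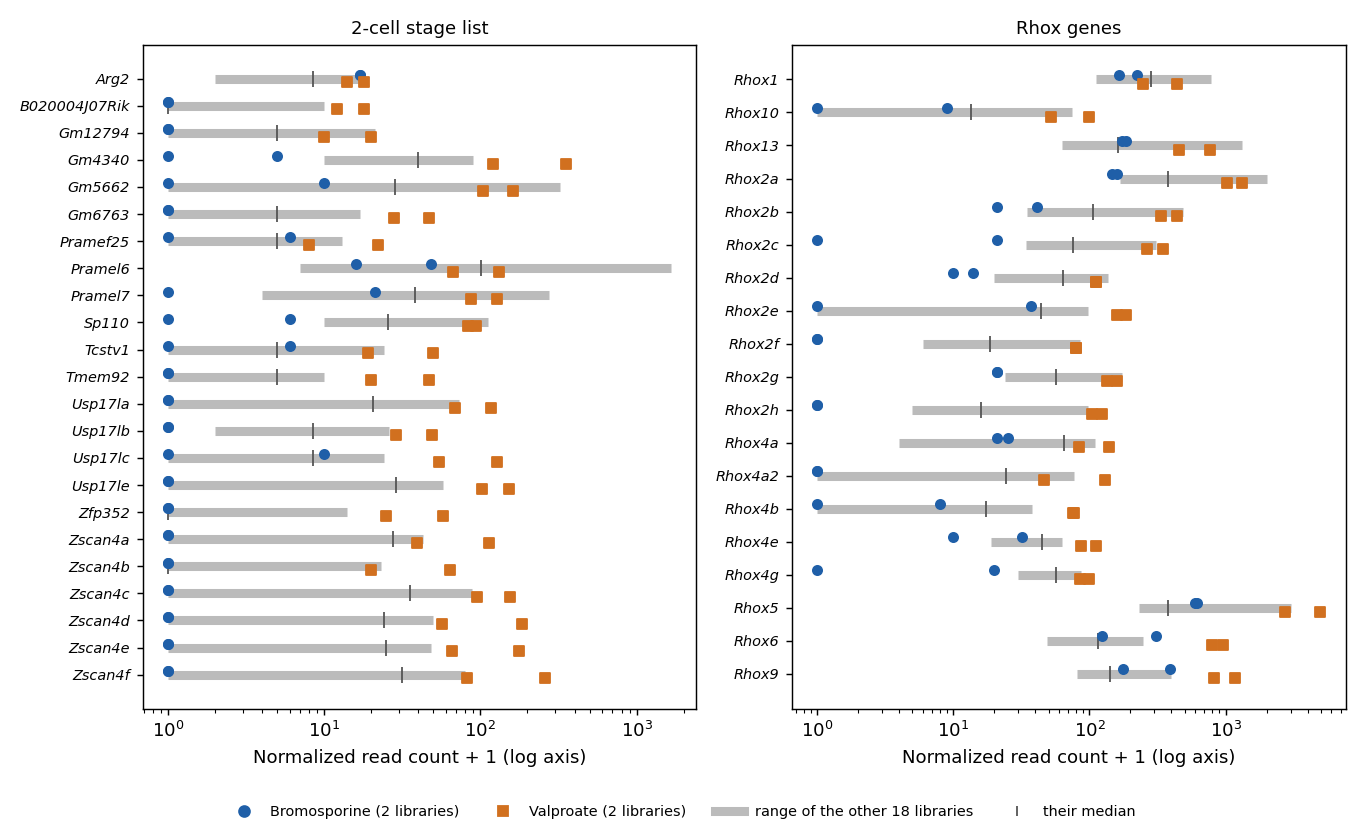
Normalized read count plus 1 on a log axis for the 23 tested genes of the 2-cell list (left) and the 19 tested Rhox genes (right); dots are Bromosporine, squares Valproate, bars the range of the other 18 libraries and ticks their median, and a library listed at 0 stands at 1. The squares lie to the right of the dots for every gene of both panels except Arg2 on the left, where they overlap.

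Some germline genes outside these clusters were also called higher with Valproate. Of 30 tested, 10 were called in that direction (5.82% over all genes) and 0 in the other (2.81% over all genes). At an unadjusted limma p under 0.05, 2 were higher with Bromosporine. A negative difference was found for 25 (median -0.69). Against the other groups, the median log2 change of the list was -0.52 with Bromosporine and 0.12 with Valproate, and 0 of its genes were in the opposite class. Piwil2, which acts with piRNAs against transposons, was at 143 and 140 against 457 and 448 (-1.67 ± 0.18, limma adjusted p = 6.8e-05), and Tex19.1, a mammal-specific gene that restrains retrotransposons, was at 1057 and 1417 against 3139 and 5020 (-1.70 ± 0.29, limma adjusted p = 0.0018). Mov10l1 and Tdrd9, helicases of the piRNA pathway, were at 242 and 188 against 918 and 561 and at 24 and 58 against 223 and 183. For Tdrd9 and Mov10l1 the Bromosporine libraries were below all others (113 to 293 and 328 to 1002) while Valproate was within their range, and for Brdt Valproate was above them. Mael, Taf7l, Syce1, Rpl10l and Tex101 were the other genes called.

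Of 22 tested genes for interferon and antigen presentation, 9 were called higher with Valproate (5.82% over all) and 0 higher with Bromosporine (2.81%). At an unadjusted limma p under 0.05, 2 were higher with Bromosporine, and the median log2 difference was -1.11. Bst2, the virus-tethering protein tetherin, was at 474 and 333 against 2964 and 1829, and H2-K1, a class I histocompatibility antigen, at 338 and 281 against 1110 and 1152 (-2.55 ± 0.37 and -1.87 ± 0.20, limma adjusted p = 0.000623 and 8.31e-05). Nlrc5, the transactivator of class I genes, was at 2 and 0 against 69 and 38, and Tap2, a subunit of the peptide transporter, at 0 and 2 against 45 and 24 (limma adjusted p = 0.000429 and 0.00151). With Ifi27, these 2 were in the opposite class. Ifih1, the RNA sensor Mda5, was listed at 0 in both Bromosporine libraries and was at 47 and 86 with Valproate, which was near NC (53 and 26).

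Genes that respond to signalling pathways were read by pathway, with no test between pathways. Of 26 immediate early and ERK feedback genes, 4 were called higher with Bromosporine (2.81% over all genes) and 2 higher with Valproate (5.82%). Spry4, an antagonist of FGF signalling, was at 34 and 63 against 4 and 2, and Dusp6, the phosphatase of ERK, at 243 and 352 against 61 and 67 (3.61 ± 0.44 and 2.18 ± 0.20, limma adjusted p = 0.000193 and 2.85e-05). Together with Etv4 and Fosb (24 and 23 against 2 and 3), these genes were below all other libraries with Valproate and, apart from Etv4 and Fosb, above the others' maximum in the second Bromosporine library. Ier5 and Fosl2 went the other way, at 112 and 110 against 310 and 439 and at 30 and 27 against 72 and 72 (limma adjusted p = 0.00422 and 0.0156).

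WNT targets were higher with Valproate for 5 of 19 genes (median log2 difference -1) and for 3 in each fit that left out a library. Over all genes, 5.82% were called higher with Valproate. Sp5, a direct target of beta-catenin, was at 409 and 374 against 2216 and 2141 (5.56-fold on this scale, limma adjusted p = 0.000322). Lef1, a partner of beta-catenin, was at 81 and 51 against 350 and 194 (4.01-fold, limma adjusted p = 0.00472). Both were above all other libraries with Valproate (maxima of 1314 and 113). Ccnd1, cyclin D1, differed because Bromosporine was low, at 1177 and 1931 against 3264 and 4212, with 3089 to 5395 elsewhere (-1.30 ± 0.29, limma adjusted p = 0.00913).

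Of 19 genes of Nodal signalling, primitive streak and mesoderm, 2 were called higher with Bromosporine and 4 higher with Valproate (2 without the first Bromosporine or without the second Valproate library). Over all genes, 2.81% were called higher with Bromosporine and 5.82% higher with Valproate. Id1, a BMP target, was at 138 and 176 against 32 and 27 (2.37 ± 0.33, limma adjusted p = 0.000498). Eomes, a T-box factor, was at 331 and 298 against 105 and 188 (1.15 ± 0.33, limma adjusted p = 0.031). Lefty1, like Lefty2 an antagonist of Nodal, was at 48 and 167 against 458 and 460 (-2.34 ± 0.48, limma adjusted p = 0.00617), and was below the median of the other libraries with both compounds (679). Hand1 was listed at 0 in both Bromosporine libraries, against 11 and 17 with Valproate, and Kdr, a receptor of VEGF, was at 112 and 110 against 208 and 264. Marker genes of mesoderm, which include Hand1 and Kdr, summed to 159 and 140 with Bromosporine and 309 and 346 with Valproate (148 to 312 elsewhere), and those of trophectoderm, which include Eomes and Hand1, to 422 and 323 against 431 and 386. Their part in the results was not tested.

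The matrix list separated by gene. Over all genes in the test, 5.82% were called higher with Valproate and 2.81% higher with Bromosporine. Of 33 tested genes, 4 were called higher with Valproate, Col1a1, Col6a3, Mmp2 and Tnc, and 1 higher with Bromosporine, Mmp14 (2 higher with Valproate without the second Bromosporine or the second Valproate library). Mmp2, a gelatinase, was at 70 and 72 against 1267 and 929, with 81 to 454 elsewhere, so that the compounds lay outside the range on opposite sides (-3.91 ± 0.23, limma adjusted p = 2.2e-06). Over all 32 tested collagen genes, a group chosen after the values were seen, 9 were called, all higher with Valproate, and 3 without the second Valproate library. The summed markers of fibroblasts were 740 and 657 with Bromosporine and 1618 and 1495 with Valproate (99 to 1949 elsewhere). Among them Col1a1, Thy1 and Lum were called, all higher with Valproate, and Dcn and S100a4 were at 0 in all 4 libraries. Col3a1, which made up most of the Bromosporine sums, was not called (658 and 601 against 307 and 722). Col1a1 was low, at 7 and 6 against 14 and 25, with a median of 25.5 elsewhere. Whether such cells had a part in the matrix genes was not tested.

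Some histone genes were called higher with Bromosporine, as were 2.81% of all tested genes. Of 15 genes listed as replication-independent histones, 4 were called higher with Bromosporine and 0 higher with Valproate, also at an unadjusted limma p under 0.05. They were H2afx, Hist1h2bc, Hist2h2be and Hist3h2a (2 without the second Bromosporine or the first Valproate library). H2afx, the histone variant phosphorylated at DNA breaks, was at 33698 and 36624 against 11648 and 19758 (1.21 ± 0.33, limma adjusted p = 0.0258), and Hist2h2be was at 146 and 145 against 35 and 27 (2.21 ± 0.23, limma adjusted p = 5.51e-05). Both genes were above the other libraries' maxima with Bromosporine (27722 and 120). The histone clusters, chosen after the values were seen, include Hist1h2bc, Hist2h2be and Hist3h2a, so that their count overlaps that of the list. Of 43 tested cluster genes, 39 had a positive difference (median 1.09) and 8 were called, all higher with Bromosporine. Without the first or the second Bromosporine library 5 and 2 of these were called, and without the first Valproate library 2. The libraries were enriched for polyadenylated RNA, which most replication-dependent histone transcripts are not, and part of the clustered genes share sequence with each other.

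Another cluster on that side, where 2.81% of all tested genes were called, was that of the gamma protocadherins, adhesion molecules of neurons. Of 21 tested, 19 had a positive difference and 6 were called higher with Bromosporine (2 without the first Valproate library), a count made after the values were seen. Pcdhga8 was at 121 and 159 against 28 and 41 (limma adjusted p = 0.00126). These genes share their last exons, so that reads from that part cannot be assigned to a single member.

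Imprinted genes were called in both directions, 4 of 30 each (2.81% of all genes higher with Bromosporine and 5.82% higher with Valproate). Rian, Mirg and Rtl1, all of the Dlk1-Dio3 domain, were at 29466 and 23795 against 6028 and 4159, at 1539 and 1353 against 362 and 446 and at 46 and 72 against 7 and 8 (log2 differences of 2.40 ± 0.61, 1.84 ± 0.30 and 2.79 ± 0.52). For Mirg and Rtl1 the Valproate values were below all other libraries, and for Rian they were within a wide range (2540 to 49460). Peg10 and Sgce, neighbours on another chromosome, were at 280 and 261 against 597 and 815 and at 77 and 38 against 131 and 180. Grb10 was the fourth gene higher with Bromosporine, and Cdkn1c and Usp29 were the others higher with Valproate.

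In the remaining lists, the share called was 21.1% for trophoblast, 14.8% for neuronal, 13.6% for G1 and 13% for primitive endoderm genes (8.64% over all). It was 8.7% for the integrated stress response, 7.14% for the retinoic acid response, 4.17% for fatty acid oxidation and 3.33% for lipid synthesis. Neuronal genes were called in both directions, Stmn2 and Stmn3 higher with Bromosporine and Map2 and Mapt higher with Valproate, of 27 tested, with Mapt, the protein tau, at 106 and 140 against 514 and 439. Among primitive endoderm genes, Amn, Dab2 and Hnf4a of 23 were higher with Valproate, and among 19 trophoblast genes Hand1, Rhox5 and Dlx3 were higher with Valproate and Eomes with Bromosporine. Crabp1, a retinoic acid binding protein, was the single gene called of 14 of that response, at 503 and 605 against 1681 and 1704. On the metabolic side, Trib3 and Chac1 of 23 genes of the integrated stress response, Tm7sf2 of 30 genes of lipid synthesis and Cpt1b of 24 genes of fatty acid oxidation were higher with Bromosporine, each with Valproate below NC. Of 22 G1 regulators, Cdkn1b, the CDK inhibitor p27, was higher with Bromosporine (2586 and 2383 against 1245 and 1095), and Ccnd1 and Cdkn1c were higher with Valproate.

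**Figure D5:**
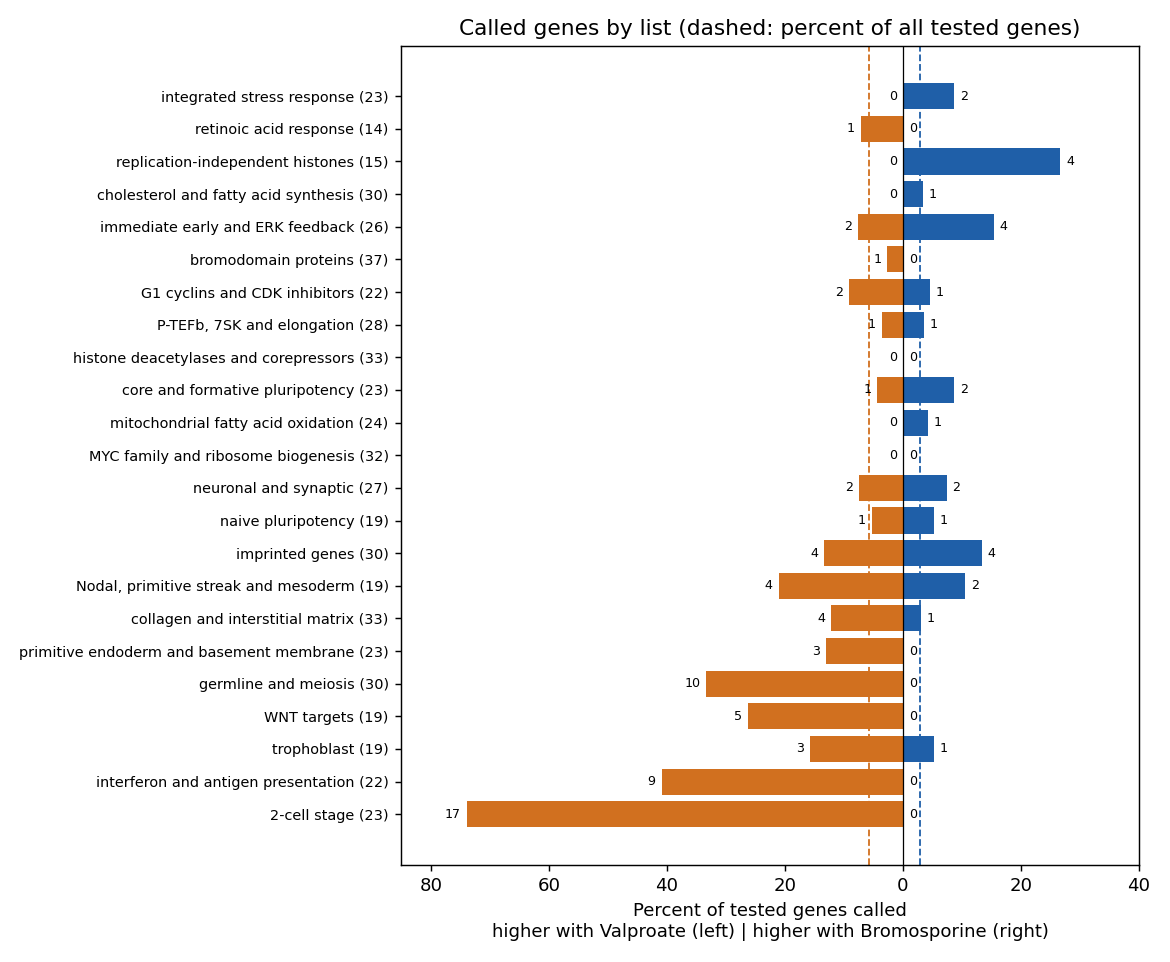
Percent of the tested genes of each list that were called higher with Valproate (left) or with Bromosporine (right), with the number of called genes at each bar and the number tested in brackets; dashed lines mark 5.82% and 2.81%, the percent of all tested genes. The bars reach furthest to the left for the 2-cell list (17 of 23) and furthest to the right for replication-independent histones (4 of 15).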

How the data were processed

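RNA-seq libraries of E14 ESCs (22, 2 for each of 11 groups) were grouped by the title and treatment labels. The values the authors deposited are treated as scores, since they are normalized read counts rounded to whole numbers. Per the labels, total RNA was enriched with oligo-dT beads. The submitters' processing notes name mm10, Bowtie2 2.2.5, RSEM and bcl2fastq, and the study's methods name EDASeq full normalization and counting by RSEM or TEtranscripts; which route gave this table is not given in the sources used here. This leaves the same distribution in each library (totals of 38403767 to 38419709), hides depth, and would mask any shift common to most genes. A second table with the authors' means was not used, and 0 columns were unmatched. Count tests need raw counts and were not run.

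Tests were run with limma 3.58.1 (R 4.3.3) on log2(value + 1) (lmFit on 11 group means of all libraries, 11 residual degrees of freedom, eBayes with a trend, two-sided, Benjamini-Hochberg over 17275 genes). Fold changes are on that scale and understate those of low genes. Each compound was also contrasted with the mean of the other 9 groups. Named genes were, in each direction, the 10 with the largest direct difference among genes whose groups did not overlap. Up to 6 opposite and 5 alike genes, ranked by the smaller of both changes, were named whether or not the groups overlapped. All of these were above 0 in all libraries, with a group mean of at least 100 and no predicted, clone or receptor-family symbol (341 called genes left out). 18 single genes and 23 lists were read whatever their result. Some genes chosen by these rules are not reported here. Members and lists were chosen with earlier results of these data known. On simulated data with 17275 genes, 82 of 100 genes changed by 2 and 98 of 100 changed by 3 (log2) were recovered. The changed genes had a mean log2(value + 1) over 5 and the noise was normal and independent between libraries. Recovery of genes near 0 was thus not tested. Gene positions came from GENCODE M21 (97.2% of tested genes found). RefSeq promoter windows were found for 68.4%, under 80%, so no promoter comparison between classes is given. Figures were drawn with matplotlib 3.10.9 in Python 3.11.15. The alternatives tried were a pseudocount of 10, no low-value filter, the compared libraries alone, a replicate block, median-ratio rescaling, genes above 0 in all libraries, no variance trend, each replicate left out, NC as the reference and the reference without DZNep.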

Additional observations from a re-analysis of the deposited data

How the results depend on the processing

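Every direct call kept its sign under the alternatives that were run. Restricting the fit to the compared libraries (with NC for the classes) lowered most counts. It called 164 genes (15 higher with Bromosporine, 149 with Valproate), 0 and 1 opposite (Bromosporine or Valproate higher), 17 and 11 alike (higher and lower), 2 and 34 with Bromosporine alone (higher and lower) and 49 and 3 with Valproate alone. Lists were counted, here and with 1 library left out, only on the side with more calls in the main fit. That side was Bromosporine for the ERK and histone lists and Valproate for the other lists. By list this fit called 6 genes of the 2-cell stage, 1 each of germline, interferon, WNT and Nodal, 2 of the matrix, and 0 of the ERK and 0 of the histone list. Of the named genes, Fgf17, Fbln2 and Thy1 kept their direct call there. A pseudocount of 10 gave 2 opposite genes higher with Bromosporine and 2 matrix genes, and genes above 0 in all libraries gave 0 of the 2-cell and 2 of the matrix list. With NC as the reference, 1 and 21 genes were opposite and 31 higher with Bromosporine alone. Median-ratio rescaling kept the total (1491) and moved the share higher with Bromosporine from 32.6% to 26%.

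With 1 library left out, where the lone library is assumed to vary like the other groups, the counts ranged over the 4 fits as follows. Direct calls were 891 to 1081, with 223 to 396 higher with Bromosporine and 646 to 735 with Valproate. Opposite genes were 2 to 7 (Bromosporine higher) and 37 to 58 (Valproate higher), alike genes 7 to 29 (higher) and 77 to 142 (lower), genes with Bromosporine alone 8 to 28 (higher) and 201 to 274 (lower) and with Valproate alone 185 to 297 (higher) and 96 to 198 (lower). By list, 6 to 11 genes of the 2-cell stage, 2 to 4 of Nodal, 3 of WNT in each fit, 2 to 3 of the matrix and 2 to 4 of the histones were called.

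The direct difference of genes that were not called changed sign with a library left out. The ranges were -0.62 to 0.0759 for Atxn1l, -0.55 to 0.0387 for Hey1, -1.43 to 0.42 for Serpinf1, -0.80 to 1.08 for Krt17, -0.21 to 0.62 for Hexim1, -0.10 to 0.0351 for Hdac1, -0.20 to 0.205 for Hdac2, -0.43 to 0.20 for Nanog and -0.26 to 0.13 for Sox2. Hdac2 was also negative after median-ratio rescaling (-0.0714).

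The replicate numbers were checked as pairs. The deviations of same-numbered libraries correlated at 0.0535 to 0.298 over 55 pairs of groups (over 0.1 in 51, and 0.201 for Bromosporine with Valproate). Of 22 libraries, 20 matched best a library of their own number. Same-numbered libraries thus shared part of their deviations, which the main fit left out. A fit with the replicate block called 2170 genes, 751 of them higher with Bromosporine, with 13 and 125 opposite, 48 alike higher, 15 clustered histone genes and 86 higher with Bromosporine alone, and held all 1492 calls. Over all alternatives, 480 direct differences of the named genes reported here kept their direction and side of the threshold, 29 lost a call, 2 gained one and 16 changed sign. Of the contrasts of named opposite and alike genes with the other groups, 381 kept their call or its absence and 61 lost a call. Depth is hidden by the normalization, and genes listed at 0 allow no limit on their level.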
